A study of Mus musculus with 24 samples.

Results

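The genes followed here are 8 genes of bile duct epithelium and of the ductular reaction in mouse liver, namely the keratins Krt7, Krt19 and Krt23, the surface proteins Epcam, Cd24a and Prom1, and the transcription factors Sox9 and Sox4. They were chosen by symbol and are 8 of the 56205 gene rows of the count table, and 8 of 8 passed the filter on low counts that left 14109 genes for testing. Whole livers of C57BL/6J mice, males and females in equal numbers, were profiled by sequencing of poly(A) RNA after 20 weeks on a diet deficient in methionine and choline (MCD, n = 12) or on its control diet (n = 12). The series gives 12 animals per diet, as many as there are libraries. No transgene or drug was used, the age of the mice at the start of this diet is not given in the sources used here, the study's methods list the diet as high in fat, and no sex, litter or batch is given for a single library.

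Cholangiocytes line the bile ducts and carry simple keratins that hepatocytes lack. In chronic liver injury, small duct-like structures and cells with mixed biliary and progenitor features appear at the portal tracts, a response called the ductular reaction. Keratins build the filaments of these cells, Epcam, Cd24a and Prom1 sit on their surface, and Sox9 and Sox4 are transcription factors of bile duct development.

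RefSeq promoter sequences were matched by symbol for 5 of the 8 genes (Epcam, Krt7, Krt23, Prom1 and Sox4), and those of Epcam, Krt7, Krt23 and Sox4 are shown because 3 of these genes were higher with the diet while Krt23, a keratin like Krt7, did not pass the test. Each line gives the 250 bases before the start annotated by RefSeq in GRCm38.p6, 5′ to 3′ on the strand of the gene. The gene positions given further on are those of GENCODE, whose outermost start was the same for Epcam but lay 14 bases upstream of the RefSeq start for Sox4, 17 for Krt23 and 1360 for Krt7. The Krt7 window thus lies within the gene as GENCODE draws it, with 162 of its bases in exons of Krt7. Capitals mark matches to 4 short motifs of 6 letters that were chosen after these sequences had been seen.
Epcam, chr17:87635729-87635978, forward strand: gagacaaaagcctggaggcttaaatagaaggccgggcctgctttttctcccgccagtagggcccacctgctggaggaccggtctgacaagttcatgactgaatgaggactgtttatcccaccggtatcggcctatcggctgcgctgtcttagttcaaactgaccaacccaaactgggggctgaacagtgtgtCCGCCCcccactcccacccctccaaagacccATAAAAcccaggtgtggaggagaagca
Krt7, chr15:101412153-101412402, forward strand: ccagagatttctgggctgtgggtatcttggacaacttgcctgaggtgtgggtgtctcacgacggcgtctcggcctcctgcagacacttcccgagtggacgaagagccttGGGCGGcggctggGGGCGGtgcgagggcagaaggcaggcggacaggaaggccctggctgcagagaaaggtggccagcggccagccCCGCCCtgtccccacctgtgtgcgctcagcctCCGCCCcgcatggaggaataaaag
Krt23, chr11:99493121-99493370, reverse strand: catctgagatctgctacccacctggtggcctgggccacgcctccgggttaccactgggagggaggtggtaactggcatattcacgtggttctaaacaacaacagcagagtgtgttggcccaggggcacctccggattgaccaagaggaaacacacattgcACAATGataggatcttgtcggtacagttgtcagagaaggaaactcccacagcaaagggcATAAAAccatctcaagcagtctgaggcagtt
Sox4, chr13:28953700-28953949, reverse strand: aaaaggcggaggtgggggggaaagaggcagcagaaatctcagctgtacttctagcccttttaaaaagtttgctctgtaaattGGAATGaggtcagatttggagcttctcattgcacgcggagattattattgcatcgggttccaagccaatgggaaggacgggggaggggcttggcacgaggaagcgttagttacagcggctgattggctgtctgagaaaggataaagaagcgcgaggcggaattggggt

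The motifs were ATAAAA between 21 and 45 bases before the start on the gene's strand (TATA-like), and GGGCGG (GC box), GGAATG (core of TEAD sites) and ACAATG (core of SOX sites) anywhere in the window on both strands. Epcam held ATAAAA with its first base 27 bases before the start and Krt23 held it 31 bases before the start, against 1.98% of the 32851 promoter windows of the same length. Krt7 held 4 GC boxes and Epcam held 1. A GC box was present in 32.7% of all windows. Sox4 held GGAATG on its own strand 168 bases before the start, a motif present in 12.6% of windows, and Krt23 held ACAATG 90 bases before the start, present in 10.7%. No matches overlapped. Epcam and Krt23, of which only Epcam passed the test, thus shared the TATA-like letters at this distance, which are a description of the sequence only. Krt7 also held ATAAAA, left unmarked because it lay closer to its RefSeq start than 21 bases.

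Across the 8 genes, 7 were higher in MCD livers and 0 were lower under the limits used here, an FDR of at most 0.01 with a log2 fold change beyond 0.5 in size (edgeR quasi-likelihood test, FDR over all 14109 genes). Of all tested genes 19.2% were higher, 19.1% lower and 38.3% called in either direction. The median log2 fold change was 2.55 over the 8 genes and -0.10 over all tested genes. The 7 genes also passed a log2 limit of 1, which 13.2% of all tested genes passed in the upward direction. For 5 of the 8 (Krt7, Epcam, Cd24a, Sox9 and Sox4) every MCD library lay above every control library, as it did for 9.5% of tested genes, while 4.88% of tested genes, and 0 of the 8, had every MCD library below every control library. In whole liver RNA, more cells of a type and more RNA per cell cannot be told apart.

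**Figure D1:**
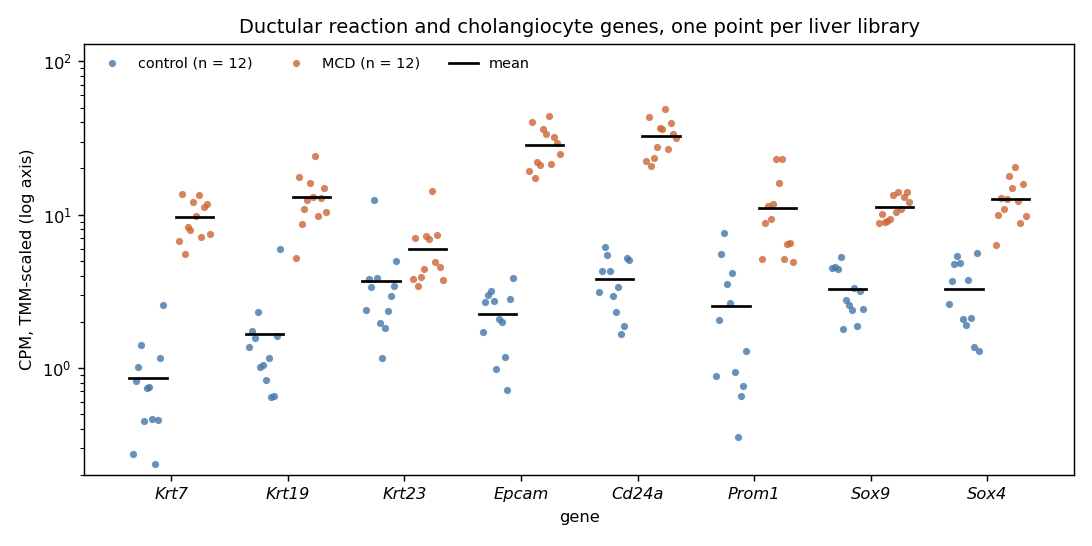
Normalised counts (CPM, counts scaled to library size, TMM-scaled, log axis) of the 8 genes in each of the 12 control (blue) and 12 MCD (orange) libraries, 1 point per library, with the mean of each diet as a black line. The diets are separated for Krt7, Epcam, Cd24a, Sox9 and Sox4, overlap by 1 pair of libraries for Krt19, and overlap widely for Krt23 and Prom1.

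The libraries held 16388650 to 24915175 counts. The floor of detection was set at 3 counts (counting error only), which corresponds to 0.109 to 0.227 CPM, and no library was at or under 3 counts for any of the 8 genes. The TMM factors used for scaling lay between 0.642 and 0.973 in control libraries and between 1.07 and 1.26 in MCD libraries. Scaling by total counts alone moved the median log2 fold change of all genes from -0.10 to 0.27 and gave 4539 higher and 848 lower calls (84.3% higher) in place of 2712 and 2688 (50.2%), and upper-quartile factors gave 65.6% higher, so each gene was also read under that scaling. All 10 hepatocyte markers were detected, with Alb at a mean of 79836 CPM in control and 51883 in MCD.

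Krt7 (ENSMUSG00000023039, chr15:101411043-101430313, forward strand, GRCm38) encodes a type II keratin of duct epithelium. Control libraries held 4 to 34 counts of it with a median of 13, and MCD libraries 135 to 372 with a median of 220.5. The lowest MCD library thus lay well above the highest control library, which was control 12 at 2.57 CPM. Mean CPM was 0.861 ± 0.647 (SD, n = 12) in control and 9.57 ± 2.75 (SD, n = 12) in MCD. The rise was 11.2-fold (95% interval 7.602 to 16.4), with a log2 fold change of 3.48, SE 0.27 and an edgeR FDR of 3.95e-11.

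Krt19 (ENSMUSG00000020911, chr11:100140810-100148665, reverse strand) encodes the type I keratin most used as a cholangiocyte marker. Its counts were 10 to 79 in control libraries with a median of 20, and 105 to 563 in MCD libraries with a median of 306.5. In CPM, 11 of 12 MCD libraries lay above every control library, and the overlap came from control 12 at 5.98 CPM and MCD 1 at 5.23 CPM. The next highest control library was at 2.32 CPM. Mean CPM went from 1.66 ± 1.44 to 12.98 ± 4.81 (SD, n = 12 each), a log2 fold change of 2.99 (SE 0.30, 95% interval 2.38 to 3.60, edgeR FDR 2.52e-09) and 3.38 without control 12. That library had the lowest TMM factor (0.642) and the lowest share of mitochondrial counts (5.34%) of the control libraries, and its part in the spread of Krt7 and Krt19 was not tested.

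Krt23 (ENSMUSG00000006777, chr11:99477974-99493137, reverse strand), a type I keratin known from stressed liver and other epithelia, did not pass the test. Counts were 25 to 221 in control libraries with a median of 52.5, and 76 to 335 in MCD libraries with a median of 113.5. All 12 MCD libraries lay above the control median, but only 1 of 12 lay above every control library, because control 4 reached 12.5 CPM while the next highest control library was at 4.99 CPM. Mean CPM was 3.71 ± 2.96 in control and 5.96 ± 3.02 in MCD (SD, n = 12 each), with a log2 fold change of 0.69 (SE 0.30, 95% interval 0.07 to 1.30, edgeR FDR 0.0483). Without control 4 the log2 fold change was 1.04 with an edgeR FDR of 0.000608, past both limits, and with total counts alone it was 1.06 with an FDR of 0.0055.

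Epcam (ENSMUSG00000045394, chr17:87635979-87651129, forward strand), an adhesion molecule of bile duct and progenitor cells that adult hepatocytes lack, had the largest fold change of the 8 genes. Control libraries held 11 to 63 counts with a median of 45.5, and MCD libraries 388 to 1112 with a median of 627.5. The groups were far apart, with no MCD library under 17.4 CPM and no control library over 3.86 CPM. The mean rose from 2.24 ± 0.963 to 28.5 ± 8.84 CPM (SD, n = 12 each), 12.7-fold (95% interval 9.23 to 17.4, edgeR FDR 1.14e-12), or 3.67 on the log2 scale with an SE of 0.22.

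Cd24a (ENSMUSG00000047139, chr10:43578284-43584265, forward strand), a small glycoprotein anchored to the membrane of progenitor and immune cells, followed the same course. Counts were 28 to 116 in control libraries with a median of 62.5, and 450 to 1189 in MCD libraries with a median of 795.5. Again the diets did not overlap. Mean CPM was 3.82 ± 1.48 in control and 32.5 ± 8.74 in MCD (SD, n = 12 each), 8.50-fold higher (edgeR FDR 1.93e-12), or 3.09 on the log2 scale with an SE of 0.20. Its longest transcript aligned over 218 bases at 96.8% identity to 1 other gene, Gm6212, which held 9 counts over all libraries.

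Prom1 (ENSMUSG00000029086, chr5:43993620-44102032, reverse strand) encodes prominin 1 (CD133), a protein of membrane protrusions. Control libraries held 6 to 135 counts with a median of 26, and MCD libraries 103 to 544 with a median of 232.5. Only 7 of 12 MCD libraries lay above every control library, although 12 of 12 lay above the control median. The mean rose from 2.53 ± 2.28 to 10.99 ± 6.60 CPM (SD, n = 12 each), with a log2 fold change of 2.10 (SE 0.40, 95% interval 1.27 to 2.93, edgeR FDR 6.3e-05). The SE was the largest of the 8.

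Sox9 (ENSMUSG00000000567, chr11:112782224-112787760, forward strand) encodes a transcription factor that marks bile ducts from their first appearance in the embryo. Counts were 29 to 93 in control libraries with a median of 55.5, and 176 to 337 in MCD libraries with a median of 265. The diets did not overlap, and within MCD the spread was the narrowest of the 8 genes. Mean CPM was 3.25 ± 1.16 and 11.2 ± 2.07 (SD, n = 12 each), with a log2 fold change of 1.78 (SE 0.16, 95% interval 1.45 to 2.11, edgeR FDR 5.16e-10).

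Sox4 (ENSMUSG00000076431, chr13:28948919-28953713, reverse strand), which acts with Sox9 in bile duct formation, held 17 to 126 counts in control libraries with a median of 52, and 128 to 479 in MCD libraries with a median of 288.5. In CPM the lowest MCD library (6.37) was only slightly above the highest control library (5.64). The mean rose from 3.28 ± 1.59 to 12.7 ± 3.98 CPM (SD, n = 12 each), with a log2 fold change of 1.94 (SE 0.23, 95% interval 1.46 to 2.41, edgeR FDR 5.95e-08). Its longest transcript aligned over 2616 bases at 100% identity to Gm26735, a gene on the opposite strand whose exons overlap those of Sox4 and which was not analysed here, and the strand setting used to count the mouse reads is not given in the sources used here, although the kit named in the study's methods marks strand. Opposite-strand genes that overlap exons of Krt7 (Gm671) and Prom1 (Gm16401) held 9 and 17 counts over all libraries.

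**Figure D2:**
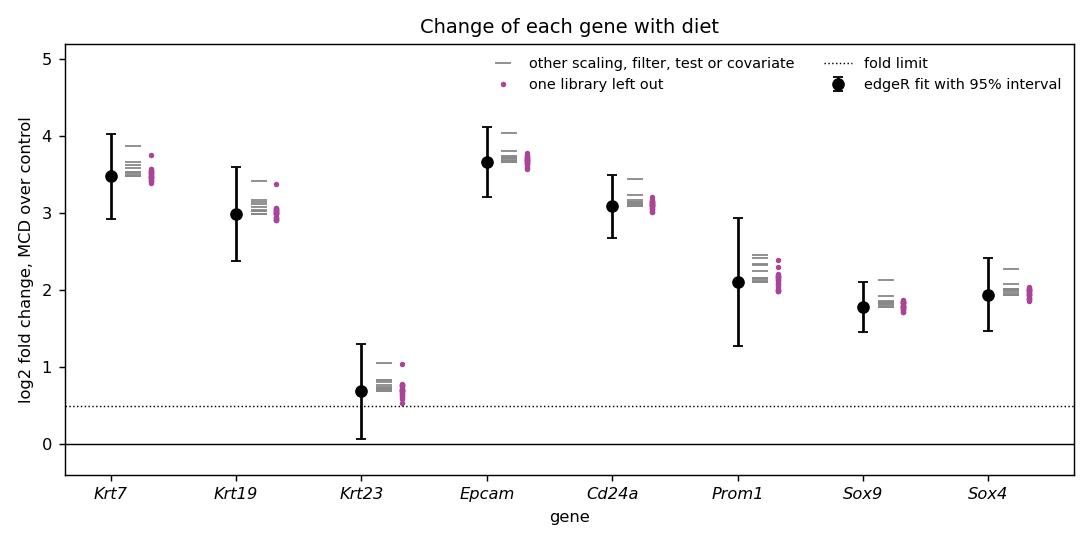
Log2 fold change of MCD over control for each gene with its 95% interval (black), with values under other scalings, filters, tests and covariates (grey dashes) and with 1 library left out at a time (purple points); the dotted line marks the fold limit of 0.5. The interval of Krt23, 0.07 to 1.30, is the only one that reaches below the fold limit, and all values shown lie above 0.

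The genes were put in order of their level in each diet. Per kilobase of the longest transcript, mean levels in control livers were 2.37 CPM per kb for Krt23, 2.10 for Cd24a, 1.10 for Epcam, 1.05 for Krt19, 0.786 for Sox9, 0.685 for Sox4, 0.619 for Prom1 and 0.210 for Krt7. In that order only Cd24a was above the next gene in 12 of 12 libraries, and Krt23 was above Cd24a in 6 of 12. Without control 4 the mean of Krt23 was 1.86 ± 0.705 CPM per kb and that of Cd24a 2.02 ± 0.803 (SD, n = 11 each), which turns the order of this pair. In MCD livers the levels were 17.9 CPM per kb for Cd24a, 14.0 for Epcam, 8.24 for Krt19, 3.81 for Krt23, 2.703 for Sox9, 2.69 for Prom1, 2.65 for Sox4 and 2.34 for Krt7. Cd24a over Epcam, Epcam over Krt19 and Krt19 over Krt23 each held in 12 of 12 MCD libraries, while Sox9 was above Prom1 in 6 of 12 and Prom1 above Sox4 in 7 of 12. These ranks of Prom1, and that of Krt7 as the lowest mean, hold only over all 12 libraries of a diet, since Prom1 split along the sex-linked score given further on.

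Whether the genes changed unequally was tested by the log2 ratio of each pair within a library, in which the scaling factor of the library cancels except through the prior count of 2 added to each gene. The difference in mean log2 ratio between the diets passed an adjusted p of 0.05 in 21 of 28 pairs (2-sided permutation test, 100000 resamples, Benjamini-Hochberg over the 28). Krt23 fell behind each of the other 7 genes. Its log2 ratio to Epcam went from 0.59 in control to -2.30 in MCD, a difference of -2.89 (95% interval -3.38 to -2.39, permutation p = 1e-05, the smallest these resamples can give, adjusted p = 4.67e-05), and the least unequal of its pairs, with Sox9, differed by -1.01 (95% interval -1.56 to -0.45, adjusted p = 0.00196). Epcam rose more than Sox9 by 1.88 (95% interval 1.41 to 2.36) and more than Sox4 by 1.67 (95% interval 1.17 to 2.18) on the log2 scale. It also rose more than Cd24a, by 0.57 (95% interval 0.34 to 0.81, adjusted p = 7e-05), and more than Krt19, by 0.62 (adjusted p = 0.00248).

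The 7 pairs that did not pass included Krt7 with Epcam (difference -0.16, 95% interval -0.57 to 0.25), Krt19 with Cd24a (-0.05, 95% interval -0.43 to 0.33) and Sox9 with Sox4 (-0.21, 95% interval -0.68 to 0.27). The other 4 were pairs of Prom1, with Krt19, Cd24a, Sox9 and Sox4, in a test that takes no account of the sex-linked score along which Prom1 split. With the diets permuted within the 2 ranges of that score, an alternative chosen after seeing the data, 24 of 28 pairs passed. Prom1 then rose less than Krt19 by 0.70 (95% interval 0.15 to 1.25, adjusted permutation p = 0.021) and less than Cd24a by 0.75 (95% interval 0.38 to 1.11, adjusted permutation p = 0.00056). It rose more than Sox9 by 0.56 (95% interval 0.07 to 1.06, adjusted permutation p = 0.0318), while its difference from Sox4 did not pass (0.36, 95% interval -0.23 to 0.94, adjusted permutation p = 0.244). Krt7 over Cd24a (0.41, 95% interval 0.03 to 0.79) sat at an adjusted p of 0.05 and did not pass with a prior count of 5, where it was 0.22 with an adjusted p of 0.222.

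Prom1 differed from the other 7 genes in its relation to a sex-linked score, the log2 CPM of Xist minus the mean of 4 Y-linked genes, scaled from 0 to 1. The fits that name the score used it as a number, a limit of 0.5 on it served to describe the ranges and to permute within them, and no animal's sex was inferred. The 24 libraries fell in separate ranges of the score, 12 between 0 and 0.14 and 12 between 0.914 and 1, with 6 of each diet in either range. In control livers, Prom1 was at 0.354 to 1.29 CPM with a median of 0.824 in the 6 libraries of the low range and at 2.04 to 7.64 CPM with a median of 3.83 in the 6 of the high range. In MCD livers it was at 4.91 to 8.80 CPM with a median of 5.78 in the low range and at 9.41 to 23.2 CPM with a median of 13.9 in the high range. The ranges did not overlap within either diet, and in each range the MCD libraries lay above all control libraries of the same range. Per kilobase, Prom1 in the low range of MCD livers (1.504 ± 0.360 CPM per kb, SD, n = 6) was below Krt7 (2.35 ± 0.703) and Sox9 (2.78 ± 0.479) in 6 of 6 libraries. In the high range (3.87 ± 1.49) it was above Krt7, Sox4 and Sox9 in 6 of 6. In the low range of control livers its mean was 0.199 ± 0.0761 CPM per kb beside 0.210 ± 0.221 for Krt7. Prom1 was nevertheless above Krt7 in 4 of these 6 libraries, and the Krt7 mean included control 12 at 0.629 CPM per kb.

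The slope of Prom1 over the full score was 2.07 on the log2 scale (SE 0.26, edgeR FDR 2.99e-06), a slope that was called at an FDR of 0.01 for 3.48% of tested genes. For the other 7 genes it was not called, with estimates from 0.05 for Krt7 (FDR 0.936) to 0.53 for Krt23 (FDR 0.333) and 0.51 for Sox4 (FDR 0.196). With the score as a covariate, the diet change of Prom1 was 2.33 with an SE of 0.22 (edgeR FDR 1.69e-09) in place of 2.10 with an SE of 0.40, and the other 7 genes kept their calls. The interaction of diet and score was called in edgeR for 0 of the 8 genes at an FDR of 0.01 (0.411% of tested genes), 0 at an FDR of 0.05 (1.28%) and 0 at an unadjusted p of 0.05 (13.7%), and was -0.97 (SE 0.49, p = 0.056, FDR 0.38) for Prom1. In both score ranges, every MCD library was above every control library of the same range for 6 of the 8 genes. Prom1 was now among them and Krt19 and Krt23 were not, and the same held for 10.8% of tested genes.

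**Figure D3:**
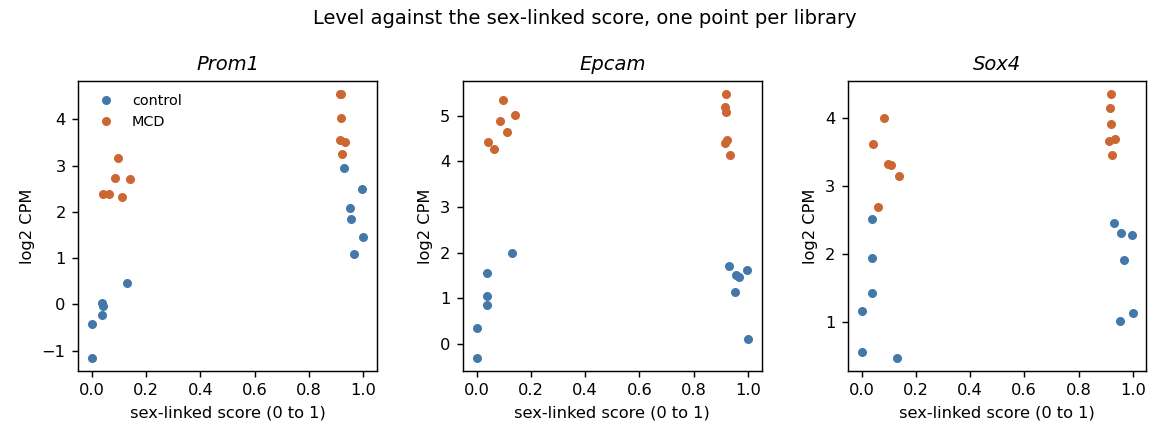
Log2 CPM (prior count of 2) of Prom1, Epcam and Sox4 against the sex-linked score (0 to 1) in each control (blue) and MCD (orange) library. Prom1 is higher at the high end of the score in both diets, by a slope of 2.07, while Epcam and Sox4 have slopes of 0.19 and 0.51 that did not pass the test.

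Variation from library to library within a diet was examined pair by pair, by Pearson's r and Spearman's rho of log2 CPM (2-sided permutation tests with 100000 resamples, adjusted over 56 relations, 28 pairs in 12 libraries of each diet). Because Prom1 falls into separate clusters along the score, its pairs are given only with the score taken out. Among the other 7 genes, 5 of 21 pairs passed an adjusted p of 0.05 by r in control livers and 13 of 21 in MCD livers, and by rho 9 and 14 of 21. Median r was 0.519 (range 0.056 to 0.847) in control and 0.735 (range 0.424 to 0.969) in MCD. The difference between the diets was not tested. No share over pairs of other genes was counted for the correlations given here, so they do not set these genes apart.

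Epcam and Cd24a correlated in both diets. In control livers r was 0.847 and rho 0.874 (adjusted permutation p = 0.00417 and r = 0.898 with the 2 libraries most distant from the Epcam median left out), and in MCD livers r was 0.969 and rho 0.951 (adjusted permutation p = 0.00056 and r = 0.947 without the 2 farthest). Krt7 and Krt19 correlated in both diets, with r = 0.828 and rho = 0.811 in control livers (adjusted permutation p = 0.00465) and r = 0.852 and rho = 0.972 in MCD livers (adjusted permutation p = 0.00168). In control livers the relation of these keratins did not pass with the 2 farthest libraries left out (r = 0.594, adjusted permutation p = 0.17), while rho over all 12 libraries did (adjusted permutation p = 0.01004). Krt23, whose mean did not pass the test of diet, followed Epcam in MCD livers with r = 0.884 and rho = 0.839 (adjusted permutation p = 0.00126), while in control livers r was 0.502 and rho 0.713 (adjusted permutation p = 0.154 for r and 0.033 for rho). With those 2 most distant libraries left out, 2 of the 5 control pairs and 9 of the 13 MCD pairs still passed.

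With the score removed by a linear fit within each diet, an alternative chosen after seeing the data whose permutation p-values are approximate, 5 of all 28 pairs passed in control livers and 22 of 28 in MCD livers. Prom1 passed with 0 of the other 7 genes in control livers and with 5 in MCD livers: Krt7, Krt19, Krt23, Epcam and Cd24a. Its r with Epcam in MCD livers was then 0.880 (adjusted permutation p = 0.00149, and r = 0.843 without the 2 farthest libraries). Within the 6 MCD libraries of the high score range, r of Prom1 with the other 7 genes ran from 0.835 to 0.978, and within the 6 of the low range from 0.080 to 0.932. None of the 28 relations computed within a diet and score range passed an adjusted p of 0.05 (exact permutation test over 6 libraries, lowest adjusted p = 0.1), a size at which the smallest possible exact p is 0.00278.

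**Figure D4:**
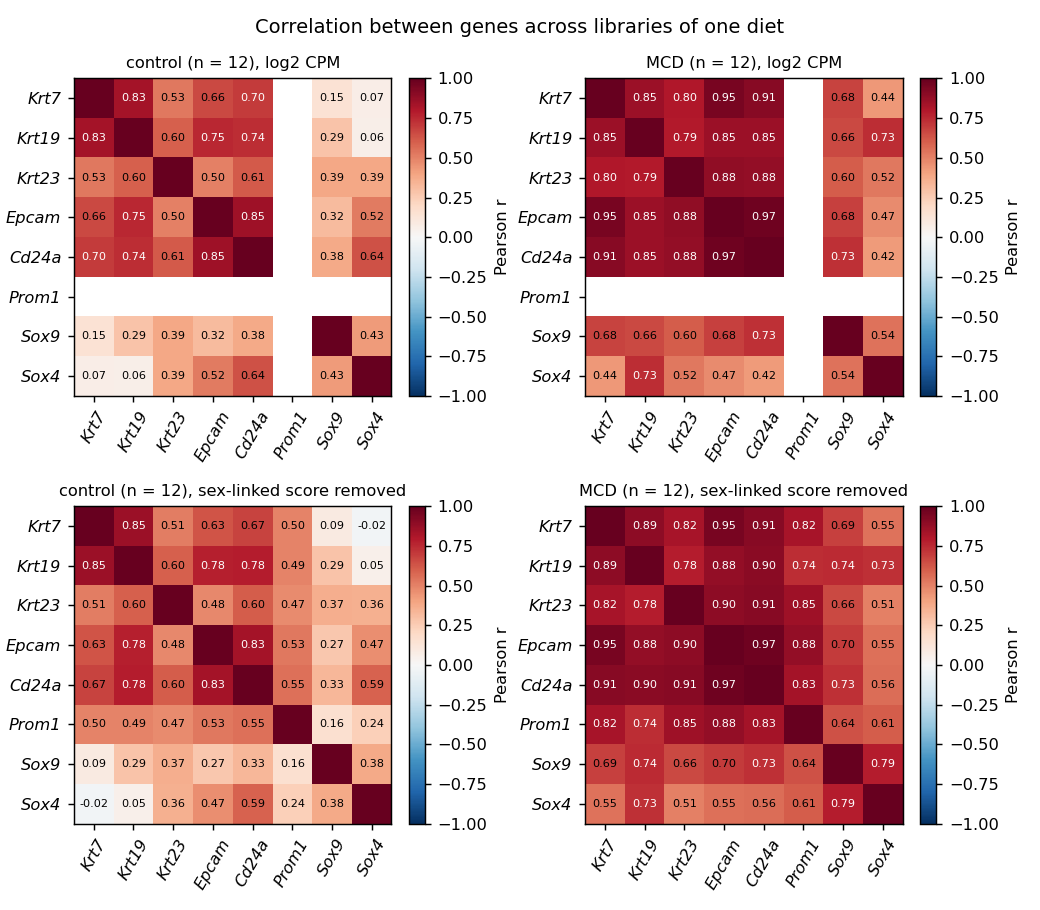
Pearson r (colour scale from -1 to 1, with values in the cells) between the genes across the 12 control (left) and 12 MCD (right) libraries, on log2 CPM (top, Prom1 left blank) and after removing the sex-linked score within each diet (bottom). Epcam and Cd24a reach 0.97 in MCD, and with the score removed Prom1 reaches 0.88 with Epcam in MCD.

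For each gene, the 3 genes of most similar pattern were listed by r of log2 CPM over the 24 libraries with each diet's mean removed, among 13104 genes with a mean of at least 1 CPM, as a description with no test. Cd24a was most like Scara3 (r = 0.924) and Spint1 (r = 0.921), and Spint1, a serine protease inhibitor of epithelial surfaces, also came next for Epcam (r = 0.890) after Ddah2 (r = 0.900) and Pamr1 (r = 0.896). Krt7 was most like Tspan17 (r = 0.924), Krt19 like Cryab (r = 0.928) and Des (r = 0.903), and Krt23 like Cldn4 (r = 0.864), a tight junction protein. Prom1 was most like Cux2 (r = 0.912), a transcription factor known for sex-biased expression in mouse liver, then Evc2 (r = 0.880) and Fgfr2 (r = 0.880). The sex-linked score was not removed here, so these r of Prom1 also carry its separate clusters along the score. Sox4 was most like Scd2 (r = 0.891), and Sox9 like Sgpp2 (r = 0.800).

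Of 44 other genes of bile ducts and of the ductular reaction in 4 lists, 40 were tested, 28 were higher (70% against 19.2% of all tested genes), 3 were lower (Onecut2, Aqp1 and Notch2) and 9 were not called. Of the 3 lower calls, that of Aqp1 was lost under 2 other scalings and that of Notch2 under 3. The median log2 fold change of the 40 was 1.83. The 4 genes not tested for low counts, named after their values were seen, were Klf5, Ggt1, Gpbar1 and Fgf7.

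Among transcription factors, 3 of 6 tested were higher and 1 lower. Ehf and Elf3, epithelial ETS factors, rose from medians of 10 and 11 counts to 158.5 and 142 counts (log2 fold changes 3.29 and 2.97, edgeR FDR 5.17e-11 and 1.49e-11). Onecut2, shared by hepatocytes and the biliary lineage, fell from a mean of 86.3 ± 21.2 to 45.3 ± 6.51 CPM (SD, n = 12 each).

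Among genes of transport and bile duct function, 6 of 11 were higher and 1 lower. Cftr, the chloride channel of the duct's apical membrane, held 0 to 3 counts in control libraries and 28 to 57 in MCD libraries, or 16 against 488 counts in all, a ratio of 22.04 after scaling (95% Clopper-Pearson interval 13.4 to 38.9, counting error only). Bicc1, an RNA-binding protein that acts against cyst formation, rose from a median of 74.5 to 747.5 counts (log2 fold change 2.67) and Anxa13, an epithelial annexin, from 17 to 172 (3.13). The water channel Aqp1, also carried by endothelium, fell from 128 ± 20.0 to 85.5 ± 11.3 CPM (SD, n = 12 each; log2 fold change -0.59). This call of Aqp1 was lost with upper-quartile factors (-0.44, edgeR FDR 0.000189) and with total counts alone (-0.24, edgeR FDR 0.0733).

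Of 10 epithelial genes 9 were higher. The largest rises were those of Cldn4 (median 3 to 163.5 counts, log2 fold change 4.68) and Tspan8, a tetraspanin (15 to 439.5 counts, 4.22). Krt8 and Krt18, the keratin pair that hepatocytes also carry, rose less, by 0.79 and 0.78 on the log2 scale (edgeR FDR 0.000122 and 0.000117), and their libraries overlapped between the diets. In the list of secreted proteins and of Notch and YAP genes, 10 of 13 were higher and 1 lower. Mmp7, a matrix metalloprotease of injured duct epithelium, went from 0 to 30 counts in control libraries to 366 to 1878 in MCD libraries (log2 fold change 6.30, SE 0.39, edgeR FDR 1.18e-12). Spp1 (osteopontin), which macrophages also make, and Lcn2, which hepatocytes also make, rose by 3.34 and 3.82. Notch2, a receptor needed for bile duct formation, passed the limits with a log2 fold change of -0.54 (edgeR FDR 0.00131). Its call was lost with total counts alone (-0.21, edgeR FDR 0.276), with factors by the upper quartile (-0.40) or by relative log expression (-0.49), with the 10-count filter (-0.46) and with DESeq2 (-0.49). The Notch2 call was also lost without control 3 (-0.43) or 6 (-0.48), and without MCD 2 (-0.47), 6 (-0.499), 7 (-0.49) or 10 (-0.48).

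Markers of other cell types also moved with the diet, and their part in the changes of the 8 genes was not tested. Of the hepatocyte markers 0 of 10 were higher and 5 lower, and their summed level was 83781 to 194897 CPM in control and 63720 to 91681 CPM in MCD livers. Of 7 mesothelial markers, cells that share Krt7 and Krt19 with ducts, 4 were tested and 2 were higher (Wt1 and Gpm6a), with sums of 1.67 to 8.69 and 5.98 to 16.9 CPM. The defining mesothelial marker Msln was at 0.903 and 0.956 CPM (log2 fold change 0.10, edgeR FDR 0.85). Higher and lower counts were 7 and 1 of 9 for stellate cells and fibroblasts, 5 and 2 of 7 for macrophages, 3 and 0 of 3 tested of 7 for neutrophils, 5 and 0 of 5 for T and NK cells, and 1 and 0 of 5 for B cells. They were 0 and 4 of 5 tested of 7 for erythroid cells, 0 and 4 of 6 for endothelium, and 5 and 0 of 5 for proliferation. Pancreatic acinar markers, which would mark admixed pancreas, summed to 0.090 to 0.849 CPM in control and 0.472 to 1.36 CPM in MCD livers, with 0 of 1 tested of 7 called.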

How the data were processed

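The deposited values are raw counts per Ensembl gene, 1 column per library, which the authors made from poly(A) RNA libraries of whole liver. Per the labels, reads were aligned with STAR 2.7.3a to mm10. The study's RNA-seq methods name a stranded TruSeq kit, the exon quantification pipeline with the same STAR version and PISCES, for a human reference. Which of these counted the mouse reads, with which annotation and strand setting, is not given in the sources used here. Of 56205 rows 28652 were 0 in every library, 0 columns were left unused and 0 pairs of libraries were identical. Symbols, positions and transcript lengths came from GENCODE mouse release 21 (GRCm38). Genes were kept with filterByExpr by diet and tested with edgeR 4.0.16 (glmQLFit and glmQLFTest) in R 4.3.3, MCD against control, TMM scaling, no covariate. They were called at an FDR of at most 0.01 with a log2 fold change beyond 0.5 in size, limits that the study states for its human data. CPM were computed on library sizes after TMM, with a prior count of 2 on the log2 scale. SEs are the absolute log2 fold change over the square root of F. The study used sex as a covariate in its human liver comparisons, and the labels of the mouse libraries do not give it per library.

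Ratios and correlations were tested in Python 3.11.15 with scipy 1.17.1 and numpy 2.4.6. Longest transcripts were compared with all other transcripts by blastn, and matches of at least 100 bases at 95% identity are given. Scripts were tested on simulated data. Alternatives were relative log expression and upper-quartile factors, total counts alone, other low-count filters, DESeq2 1.42.0, limma-voom (limma 3.58.1), a replicate block, the sex-linked score, other thresholds and leaving out each library.

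All 8 genes were named. Of every other list, up to 2 rises and 2 falls past the limits with a mean of at least 1 CPM were eligible, and always Spp1, Mmp7, Cftr, Krt8, Krt18, Alb and Msln. Not every eligible marker is printed, and 1 tested biliary gene is counted but not reported here. The 8 genes, the lists and the tests were chosen with earlier results of these data known. P-values measure the spread between the animals of these groups. Figures were drawn with matplotlib 3.10.9.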

Additional observations from a re-analysis of the deposited data

How the results depend on the processing

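All 8 genes kept their direction, and 7 of them their call, under each alternative that gave a value and without each library in turn; Krt7 and Prom1 gave none when 10 counts were required in each library. Krt23 passed with total counts alone (1.06), with the FDR limit at 0.05 and none on the fold (0.69) and without control replicate 4. Leaving out 1 library at a time gave log2 fold changes of 3.39 to 3.76 for Krt7, 2.91 to 3.38 for Krt19, 0.53 to 1.04 for Krt23, 3.58 to 3.78 for Epcam, 3.01 to 3.21 for Cd24a, 1.99 to 2.39 for Prom1, 1.72 to 1.87 for Sox9 and 1.86 to 2.04 for Sox4. The same fits gave 7 to 8 of the 8 genes higher and 0 lower, 28 to 30 of the other biliary genes higher and 2 to 4 lower, and 20 to 22 unequal pairs, which numbered 24 with the diets permuted within score ranges. Of the other biliary genes, 14 were higher when 10 counts were required in each library, a filter that tests fewer genes, and 1 was lower with upper-quartile factors, 1 with total counts alone, 5 with the FDR limit at 0.05 and none on the fold and 0 with a log2 limit of 1. Correlated pairs numbered 8 in control livers with total counts alone (5 otherwise) and 22 of 28 in MCD livers with the score removed, against 14 of 28 without this, the pairs of Prom1 included (13 of 21 without Prom1). Msln turned to -0.025 with limma-voom and ran from -0.014 to 0.329 when 1 library was left out, and Krt19 over Cd24a ran from -0.109 to 0.0938 in that way, turning above 0 without control replicate 12 and without MCD replicate 1. The cause of these shifts was not tested. Over all genes, upper-quartile factors gave 1710 lower calls, total counts alone 4539 higher and 848 lower, the 10-count filter 1801 higher, the wider FDR limit 5221 lower and the log2 limit of 1 gave 1862 higher and 686 lower, against 2712 higher and 2688 lower.

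Same-numbered libraries of the diets are not stated to share anything, and 8 of 12 such pairs had correlated deviations over 0.1 (median 0.233, range -0.28 to 0.35, against a median of -0.059 over other pairs, 2 libraries matching best with their own number). Because the labels tie no numbers and not every pair was over 0.1, the numbers were not taken as pairs. Same-numbered libraries lay in the same range of the sex-linked score except for numbers 2 and 8. The part of the score in these correlations and in the replicate block was not tested. With the replicate block the log2 fold changes were 3.58 for Krt7, 3.12 for Krt19, 0.80 for Krt23, 3.68 for Epcam, 3.12 for Cd24a, 2.34 for Prom1, 1.82 for Sox9 and 2.02 for Sox4, with 7 of the 8 higher and 0 lower, 29 and 3 of the other biliary genes higher and lower, and 22 unequal pairs. Levels near 3 counts, as for Cftr in control livers, are not resolved at this depth.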

Other observations

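Among the 40 tested genes of the other biliary lists, 2 had a slope on the sex-linked score past an edgeR FDR of 0.01 (5%), a share near the 3.48% of all tested genes, and they are named after their values were seen. Fgfr2, a receptor of fibroblast growth factors, had a slope of 0.67 on the log2 scale (SE 0.12, FDR 0.00049). Tff3, a trefoil peptide of mucus-forming epithelium, had a slope of -3.00 (SE 0.71, FDR 0.00803), with 0 to 387 counts in control and 13 to 93 in MCD libraries. The interaction of diet and score passed an edgeR FDR of 0.01 for 0 of the 40 (0.411% of all tested genes), an FDR of 0.05 for 1 (2.5%, against 1.28%) and an unadjusted p of 0.05 for 6 (15%, against 13.7%), shares near those of all tested genes. The 1 gene at an FDR of 0.05 was the bile acid transporter Slc10a2 (1.86, SE 0.45, edgeR FDR 0.0347).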
